A study of Mus musculus with 2 samples.

Results

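The mitogen-activated protein (MAP) kinases other than p38, and the MAP kinase kinases (MAP2Ks) that switch MAP kinases on, were measured in old long-term hematopoietic stem cells (LT-HSCs) with and without deletion of *p38α*. The set holds 9 genes. *Mapk3* encodes ERK1, *Mapk8* and *Mapk9* encode JNK1 and JNK2, *Map2k1* and *Map2k2* encode the ERK activators MEK1 and MEK2, *Map2k4* and *Map2k7* encode the JNK activators MKK4 and MKK7, and *Map2k3* and *Map2k6* encode the p38 activators MKK3 and MKK6. Probes were taken by their gene name in the array design, which gave 16 probes among 55662 that were not controls, and no probe carried an older symbol of these genes. Both RNA samples came from the bone marrow of 2-year-old C57BL/6J mice, from cells labelled CD150+CD48-Flt3-CD34- LSK (the methods add CD41-, which the labels do not give), and each was hybridized to 1 single-colour Agilent array. The mice of the sample labelled p38KO (p38αΔ/Δ below) carried CAG-CreERT2 and floxed *p38α*, and tamoxifen (TAM) had been given about 1 year earlier. The wild-type sample (p38α+/+ below) is described in the methods as TAM-injected, age-matched *p38α* fl/fl mice without CreERT2, so both groups share the floxed alleles and the TAM. CAG is a broadly active promoter, so the deletion was not limited to HSCs. The sources used here do not give the number of mice behind each array.

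MAP kinase cascades have 3 tiers. A MAP3K phosphorylates a MAP2K, and the MAP2K phosphorylates both a threonine and a tyrosine of its MAP kinase. MEK1 and MEK2 act on the ERKs, MKK4 and MKK7 on the JNKs, and MKK3 and MKK6 on p38, with MKK4 able to act on p38 as well. The cascades are controlled mainly by phosphorylation, so that mRNA levels, the quantity measured here, are not a measure of kinase activity. In HSCs, p38 is known for its activation by stress and with age, and ERK signaling for its part in responses to cytokines.

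Most of the members were covered by more than 1 probe, and probes of a gene did not always move alike, so the stretches of mRNA that were read matter for the values. The following probes are shown because they cover both *Map2k2* probes, the *Mapk3* probe that went against the other probes of the ERK module, and the JNK genes. Each reads through without a stop codon in at least 1 frame. Sequences are those of the array design, 5′ to 3′, and positions are those of build mm9. In the *Map2k2* probe 1, capitals mark the 9 bases that encode the magnesium-binding motif at the start of a kinase's activation segment, the segment that a MAP3K phosphorylates.
*Mapk3* probe 1 (chr7:133908255-133908314, plus strand): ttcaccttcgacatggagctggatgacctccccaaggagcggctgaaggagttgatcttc
*Map2k2* probe 1 (chr10:80582043-80582102, plus strand): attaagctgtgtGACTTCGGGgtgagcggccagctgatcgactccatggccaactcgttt
*Map2k2* probe 2 (chr10:80585320-80586386, plus strand): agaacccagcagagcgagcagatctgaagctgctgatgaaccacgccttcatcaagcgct
*Mapk8* probe 1 (chr14:34200386-34200445, minus strand): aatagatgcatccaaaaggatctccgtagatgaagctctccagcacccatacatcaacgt
*Mapk9* probe 1 (chr11:49677113-49677172, plus strand): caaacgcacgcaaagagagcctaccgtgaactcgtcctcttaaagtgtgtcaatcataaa
The *Map2k2* probe 2 spans 1067 bases of the genome with 60 bases of sequence, so it crosses a splice junction. Probes are numbered from the 5′ to the 3′ end of their gene.

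Each value below is the log2 intensity of a probe minus the 75th percentile of its array, and a difference is p38αΔ/Δ minus p38α+/+. With 1 array per genotype no spread between mice, no test and no p-value can be given. The spread that can be measured is that between repeated spots of one probe within an array. From 297 probes spotted at least 5 times, a difference between single spots of the arrays had a median SD of 0.11 (log2) for probes with an intensity of 40 and above, and of 0.31 for those from 5 to 40. This is a technical error and is smaller than the error between mice would be. Well above background means that the scanner software called the signal distinct from its local background, and such a probe is called measured. Measured on both arrays were 14 of the 16 probes, with at least 1 for each member. All 16 were single spots, and 0 non-control spots were saturated on either array.

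*Mapk14*, the gene targeted for deletion, was read by a pair of probes with differences of −0.05 and −0.04. Both were smaller than the SD between spots, and the second was 0.02 after quantile normalization and 0.03 after loess, so no loss of *Mapk14* signal was seen. The deleted exons are not named in the sources used here, and a probe outside them would not show the deletion. By genomic qPCR of peripheral blood cells, the paper reports a loss of *p38α*, though not a complete one, in mice of this TAM schedule. From LT-HSC arrays it reports lower expression of p38 pathway genes. The direction of every difference rests on the sample labels, and the sample is called the array labelled p38αΔ/Δ below. The other p38 isozymes differed by −2.06 (*Mapk12*, −0.77 with normexp background correction), 0.70 (*Mapk13*, 0.34 with normexp) and 0.08 (*Mapk11*).

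Over the 14 probes measured on both arrays, 8 were lower and 6 were higher on the array labelled p38αΔ/Δ, with a median difference of −0.22. With normexp 7 were lower and 7 higher, 0 were past 2-fold and the median was −0.0026. Over all 35819 probes measured on both arrays the median was −0.0045, with quartiles of −0.35 and 0.37. With normexp the median of all probes was 0.08, with quartiles of −0.18 and 0.24, so the member median lay below it in both settings. At least 2-fold lower was 1 member probe, where 5.53% of all probes were, and at least 2-fold higher was 1, where 5.02% of all probes were. The 8 MAP2K probes read 6 genes and the 6 MAP kinase probes read 3, so these are not counts of independent genes. Of the MAP2K probes, 7 were lower, with a median of −0.39 (6 and −0.20 with normexp, a background correction with an added offset). Of the MAP kinase probes, 5 were higher, with a median of 0.25. These were the 4 of *Mapk8* and *Mapk9* and *Mapk3* probe 1 (0.16), while *Mapk3* probe 2 was lower (−0.85). Among all probes 50.3% were lower and 49.7% higher. The difference exceeded the SD between spots of its intensity class at 12 of the 14 member probes. The share of all probes past that SD was not counted. The quartiles of all probes, −0.35 and 0.37, lie beyond the SD of either class, so this count does not set the members apart. The differences of 8 of the 14 lay outside the quartiles of the probes of similar level (within 0.25 on the log2 scale). This is close to the share that quartiles leave outside by definition.

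**Figure D1:**
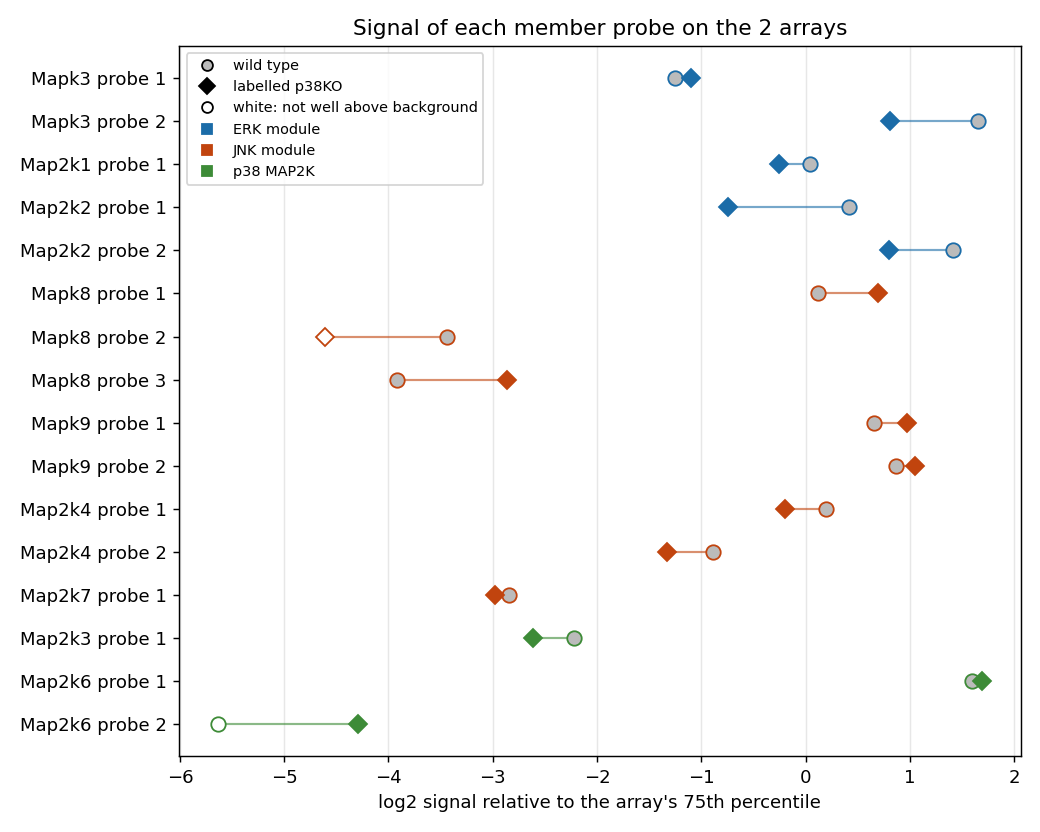
Log2 signal of each of the 16 probes, relative to the 75th percentile of its array, on the p38α+/+ array (grey circles) and on the array labelled p38αΔ/Δ (diamonds). White symbols were not well above background, and colours give the cascade. The diamond lies left of the circle for 7 of the 8 MAP2K probes measured on both arrays (6 with normexp), and right of it for all 4 such probes of *Mapk8* and *Mapk9*. Levels are to be compared along a row, not between probes.

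The ERK module was lower at 4 of its 5 probes on the array labelled p38αΔ/Δ, with a median difference of −0.62. *Map2k2*, which encodes MEK2, had both probes lower. Its probe 1, at the activation segment, went from an intensity of 191.1 on the p38α+/+ array to 68.6 on the array labelled p38αΔ/Δ, or from 0.41 to −0.75 after scaling. The difference of −1.16 corresponds to a 2.23-fold lower signal, which 3.89% of all probes measured on both arrays undercut, and was −0.80 with normexp. Its probe 2, across the splice junction, went from 1.42 to 0.80, a 1.54-fold lower signal. Both *Map2k2* probes lay below the lower quartile of probes of similar level. Each matched 1 of the 3 RefSeq transcripts of the gene in the table used. *Map2k1*, which encodes MEK1, has a single probe (chr9:64034232-64034291, minus strand), which went from 0.04 to −0.26. Its difference of −0.30 (−0.19 with normexp) was 1.23-fold and larger than the SD between spots, but inside the quartiles of probes of similar level, −0.34 and 0.37. The activators of ERK were thus lower at all 3 of their probes, by unequal amounts.

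*Mapk3*, which encodes ERK1, the kinase that MEK1 and MEK2 phosphorylate, had probes that went opposite ways. Probe 2 (chr7:133908973-133909032, plus strand) went from an intensity of 452.4 to 201.7, and its scaled signal from 1.66 to 0.81, which is 1.80-fold lower. Probe 1, which starts 718 bases upstream in the genome and 356 bases upstream in the transcript, went from −1.25 to −1.09, a difference of 0.16. These differences lie 1.01 apart on the log2 scale, where the SD between spots is 0.11. Both probes match the 1 RefSeq transcript of *Mapk3* in the table used, and both have a GC content of 55%. Probe 2 therefore gives *Mapk3* as lower and probe 1 as slightly higher, within the scanner software's error of 0.21.

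**Figure D2:**
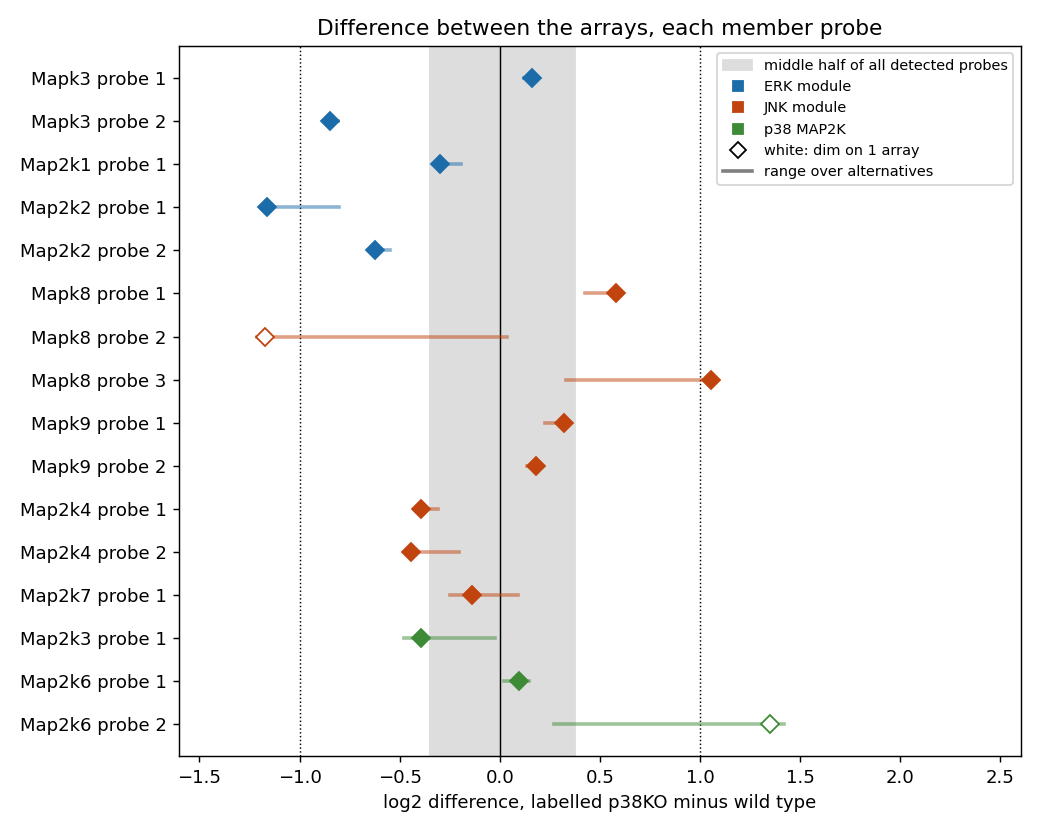
Log2 difference, labelled p38αΔ/Δ minus p38α+/+, of each of the 16 probes (diamonds), with the range over the alternative ways of processing (lines). The grey band spans the quartiles of all 35819 probes measured on both arrays, −0.35 to 0.37, and dotted lines mark 2-fold. Only *Map2k2* probe 1 (−1.16) and *Mapk8* probe 3 (1.05) lie beyond 2-fold among the probes measured on both arrays, and white diamonds are dim on 1 array.

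In the JNK module, the 4 kinase probes measured on both arrays were higher and both probes of the activator *Map2k4* were lower, while the probe of the activator *Map2k7* differed by less than the spot error. *Mapk8*, which encodes JNK1, was read by 3 probes, each matching 1 of the 4 RefSeq transcripts of the gene in the table used. Probe 1 went from an intensity of 155.6 to 186.7, or from 0.12 to 0.70 after scaling, a 1.49-fold higher signal. The other probes of *Mapk8* were dim, with intensities below 40. Probe 3 (chr14:34191681-34191740, minus strand), 3593 bases downstream of probe 2, went from an intensity of 9.49 to 15.8. Its difference of 1.05 was 2.07-fold, but 0.95 after a loess between the arrays and 0.33 with normexp. Probe 2 (chr14:34195274-34195333, minus strand) went the other way, from an intensity of 13.2 to 4.71, and on the array labelled p38αΔ/Δ it was not well above background. It was 2.25-fold lower, a ratio to its own signal on the dim array and not a lower bound. With normexp its difference was 0.03. The dim probes thus pointed in opposite directions, and probe 1 gave *Mapk8* as higher.

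*Mapk9*, which encodes JNK2, had both probes slightly higher. Probe 1 went from 0.65 to 0.97, a difference of 0.32, and probe 2 (chr11:49699496-49699555, plus strand) from 0.87 to 1.05, a difference of 0.18. These probes lie 22383 bases apart and match all 4 RefSeq transcripts of the gene. Probe 1 lay just above the upper quartile of probes of similar level, 0.28. Probe 2 lay below that quartile and within the scanner software's error of 0.20. The 4 probes of *Mapk8* and *Mapk9* measured on both arrays had a median difference of 0.45 and were all higher. With normexp they were all higher too, with a median of 0.28.

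*Map2k4*, which encodes MKK4, was lower at both probes by nearly the same amount, and each probe matched 1 of the gene's 6 RefSeq transcripts. Probe 1 (chr11:65502886-65502945, minus strand) went from 0.20 to −0.19 and probe 2 (chr11:65501771-65501830, minus strand) from −0.89 to −1.33. The differences of −0.39 and −0.44 lie 0.05 apart, less than the SD between spots, and both lay just below the lower quartile of probes of similar level. With normexp, probe 2 was at −0.20. *Map2k7*, which encodes MKK7 and is on the list of young HSC markers that the study used, has 1 probe (chr8:4245752-4245811, plus strand). It was dim, with an intensity of 20.0 and of 14.6, and its difference of −0.14 was within the SD between spots for dim probes, 0.31. The sign turned with normexp, to 0.09. The 3 probes of *Map2k4* and *Map2k7* had a median of −0.39 (−0.20 with normexp).

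The activators of p38 were measured by 1 bright and 1 dim probe on both arrays. *Map2k6*, which encodes MKK6, is read by a bright probe 1 (chr11:110374803-110374862, plus strand) that went from 1.60 to 1.70. The difference of 0.09 was within the SD between spots, 0.11, and ran from 0.02 to 0.15 over the alternatives. *Map2k6* probe 2 (chr11:110386219-110386278, plus strand), 11416 bases downstream, matches 0 of the 6 RefSeq transcripts of the gene in the table used and was designed from another transcript. Its intensity on the p38α+/+ array, 2.88, was not well above background, and it was 5.89 on the array labelled p38αΔ/Δ. Its signal was 2.55-fold higher, a ratio to its own dim signal and not a lower bound, and the difference was 0.27 with normexp. *Map2k3*, which encodes MKK3, has 1 dim probe (chr11:60765712-60765771, plus strand) that went from an intensity of 30.8 to 18.8. Its difference of −0.39 was larger than the SD between spots for dim probes, but was −0.03 with normexp. The kinases that activate p38 thus included 1 gene with a difference within the spot error and 1 whose lower signal depended on the background correction.

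**Figure D3:**
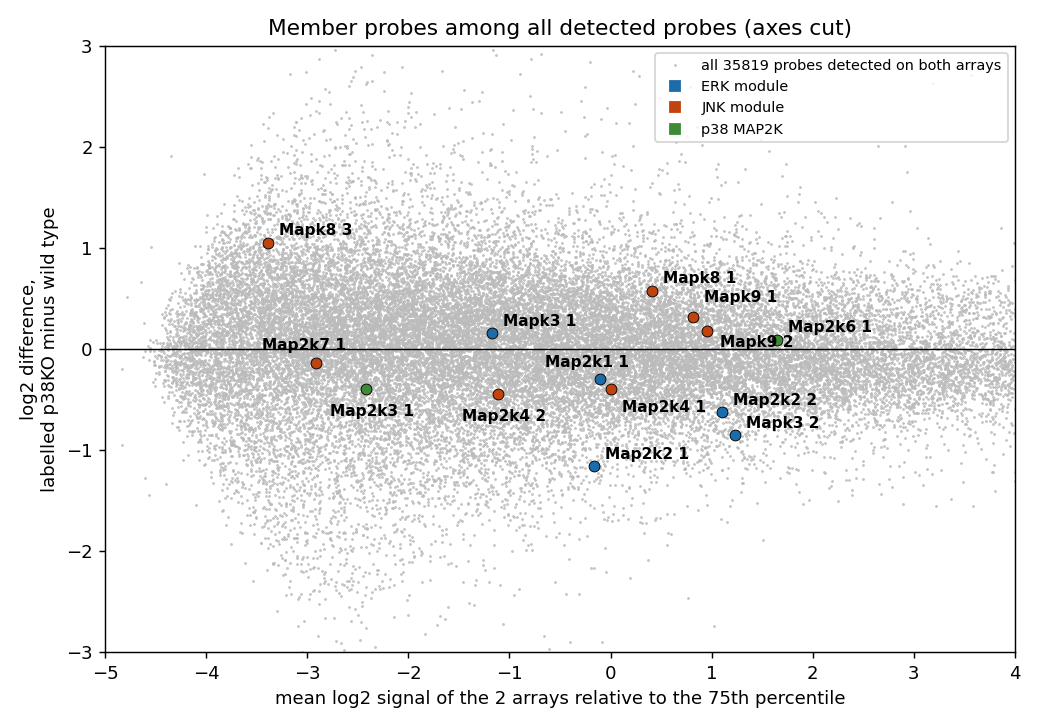
Log2 difference against mean log2 signal of the 14 member probes measured on both arrays (coloured, numbered by probe) and of all 35819 probes measured on both arrays (grey). Both axes are cut, so that some grey probes lie outside. The grey cloud widens toward dim probes, where *Mapk8* probe 3 (1.05) lies, while *Map2k2* probe 1 (−1.16) has 3.89% of all probes below it, *Mapk3* probe 2 (−0.85) 7.71% and *Map2k2* probe 2 (−0.62) 13.0%.

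With each gene at its brightest probe, 6 of the 9 members were lower and 3 higher (*Mapk8*, *Mapk9* and *Map2k6*), with a median of −0.30, and the mean of a gene's probes gave the same counts and median. With normexp 5 were lower and 4 higher, and the median was −0.03. None of the 9 was past 2-fold, whereas of 15664 named genes measured on both arrays 5.03% were past it downward and 3.2% upward. Over these genes the median without normexp was −0.04, with 53.2% lower and 46.8% higher. Their median with normexp was not computed, and over all probes it was 0.08, so the −0.03 is not to be set beside the −0.04.

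The other genes of the cascades were described from lists at their brightest probe. Of 28 MAP3Ks and their partners, 25 were measured on both arrays, with 11 lower, 14 higher, 1 past 2-fold (upward) and a median of 0.02. Among all named genes 3.2% were past 2-fold upward. *Map3k20* (−0.89, −0.54 with normexp) and *Map3k11* (−0.61, −0.21 with normexp), MAP3Ks upstream of JNK and p38, were lowest. *Map3k12* (1.28, 0.54 with normexp) and *Map3k5* (0.63), which also act on JNK, were highest. *Map3k12* was thus the one MAP3K past 2-fold, and a second probe of *Map3k5* was at −0.40. Of 16 scaffolds and regulators, 15 were measured on both arrays, with 7 lower, 8 higher, 0 past 2-fold in either direction and a median of 0.02. *Pebp1* (−0.57), an inhibitor of RAF kinases, and *Arrb1* (−0.39), an arrestin, were lowest. *Mapk8ip3* (0.82), a JNK scaffold, and *Ksr2* (0.66), an ERK scaffold, were highest, but their probes ran from −0.03 to 0.82 and from −1.32 to 0.66. A list of other MAP kinases and MAP2Ks held 6 genes, of which 5 were measured on both arrays, with 2 lower, 3 higher, 0 past 2-fold and a median of 0.12. *Map2k5* (−0.33), the activator of ERK5, and *Nlk* (−0.16) were lower, and *Mapk15* (0.75, 0.30 with normexp) and *Mapk7* (0.36), which encodes ERK5, were highest. *Mapk10*, which encodes JNK3, was measured on neither array.

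Of 12 genes for substrates and nuclear targets of ERK and JNK, all were measured on both arrays, with 7 lower, 5 higher, 2 past 2-fold (both downward) and a median of −0.30. Among all named genes 5.03% were past 2-fold downward. The transcription factors *Ets1* (−1.04, −0.65 with normexp) and *Ets2* (from 1.36 to 0.35), which ERK phosphorylates, were lowest. *Ets2* was only just past 2-fold, at −1.003. It was at −0.98 after quantile normalization, −0.97 after loess and −0.87 with normexp. A second *Ets1* probe was at 0.44. *Atf7* (0.72, 0.47 with normexp) and *Elk1* (0.21, but −0.04 after quantile normalization) were highest.

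**Figure D4:**
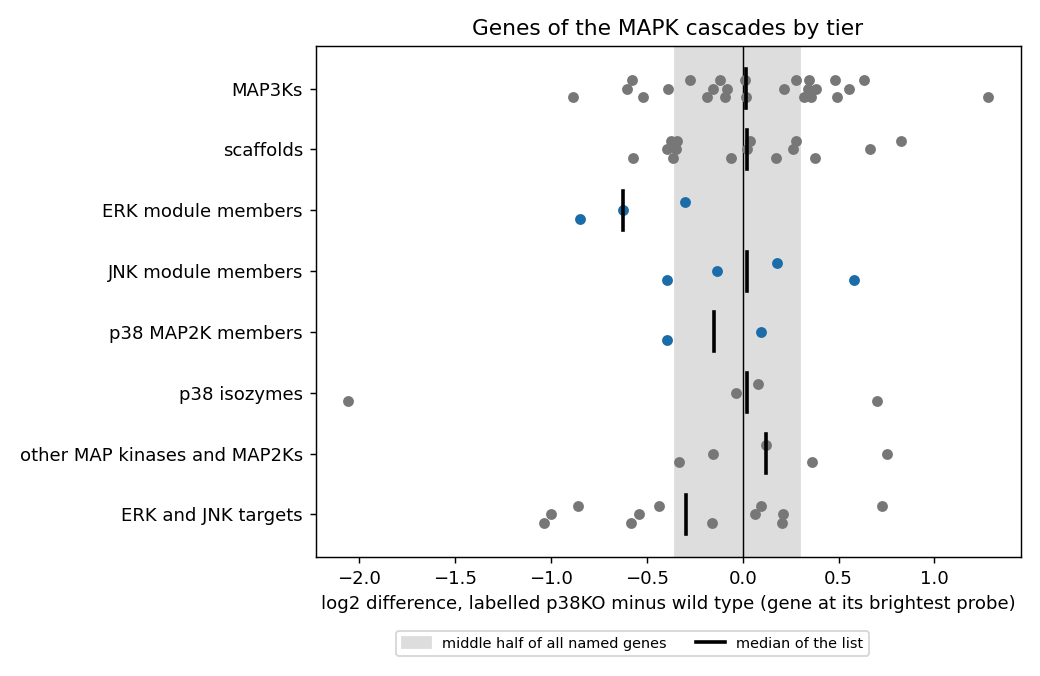
Log2 difference, labelled p38αΔ/Δ minus p38α+/+, of each gene of the cascades measured on both arrays, at its brightest probe, by list, with the 9 members in blue and other genes in grey. Black bars are the medians, from −0.62 for the 3 ERK module members to 0.12 for the other MAP kinases and MAP2Ks, and the grey band spans the quartiles of all 15664 named genes.

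Markers of the sorted cells and of other blood cells moved between the same arrays. Of 12 HSC markers, all were measured on both arrays and 11 were lower at their brightest probe on the array labelled p38αΔ/Δ. Their median was −0.64, with a summed signal, in units of the 75th percentile, of 173 against 136. Of all named genes measured on both arrays, 53.2% were lower and 46.8% higher. The lowest HSC marker, *Mecom* (−1.44, −0.93 with normexp), had another probe at 0.61. Of the genes for surface proteins that the sort, by the labels or the methods, selected against, *Cd48* differed by 1.37 at its brightest probe (0.71 with normexp) and by 0.19 at the other. *Flt3* differed by 0.36 (0.23 with normexp), with probes from −0.07 to 0.88, *Cd34* by −0.15, with another probe at −0.997, and *Itga2b* (CD41) by −0.37. In the same order, wild type first, the summed signals were 189 and 264 for 10 myeloid markers (7 of 9 measured on both arrays higher), 3.82 and 18.9 for 8 B cell markers (6 of 6 higher), 17.3 and 23.1 for 8 T and NK cell markers (4 of 5 higher) and 11.2 and 14.6 for 6 erythroid markers (4 of 6 higher). These sums add probes of unlike brightness and lean on single genes. Without the gene of the highest mean level in each list, a choice made after the values were seen, they were 122 and 88.4 for the HSC markers (without *Kit*), 7.46 and 21.6 for the myeloid markers (without *Itgam*), 2.69 and 3.67 for the B cell markers (without *Jchain*), 5.70 and 8.62 for the T and NK cell markers (without *Nkg7*) and 3.28 and 3.29 for the erythroid markers (without *Car1*). Of the myeloid markers left without *Itgam*, *S100a9* was the brightest and went from 1.91 to 3.92. Lower among the markers measured on both arrays were the myeloid *Elane* (−1.41) and *Lyz2* (−0.96). So were the erythroid *Hbb-bt* (−1.10) and *Hba-a1* (−0.57) and the T and NK cell list's *Klrb1c* (−0.53), each by less with normexp. *Cd3d*, *Cd3g* and *Cd8b1* were measured on neither array. The part of these shifts in the differences of the MAP kinases and MAP2Ks was not tested. In RNA of sorted cells in bulk, fewer cells of a type and less RNA per cell cannot be told apart.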

How the data were processed

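LT-HSC RNA of 1 p38α+/+ and 1 labelled p38αΔ/Δ sample was read on single-colour Agilent arrays of the same slide. The authors deposited scanner files with a processed intensity per spot, background-subtracted and detrended by Agilent Feature Extraction 11.5.1.1 and not normalized between arrays, with coordinates of build mm9. The processed signal error, mean and background intensities of the same files were also deposited. The authors also deposited a table of log2 values for 35795 probes, which equal the log2 intensity of each array minus a constant, 7.16 and 6.84.

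Here spots flagged as non-uniform or as outliers were left out (19 of 55681 probes), log2 intensities of repeated spots were averaged, and each array's 75th percentile was subtracted (7.16 and 6.85). A probe is measured when it is well above background, which held for 67.9% and 69.1% of probes. The number of arrays limits the precision. Genes were named through symbols, older symbols and RefSeq accessions in a gene table (assembly GRCm38.p6, from which no coordinates were taken), giving 22555 genes. For a probe dim on 1 array, the bright signal was set over the higher of the dim signal and the lowest signal well above background of that array. For *Mapk8* probe 2 and *Map2k6* probe 2 this was the dim signal, so their fold values are plain ratios. Named genes were all 9 members with every probe, the p38 isozymes, and the 2 lowest and 2 highest of each other list. The members and lists were chosen with earlier results of these data known, and the intensity classes of the spot spread after values were seen. With 2 arrays, likeness of pattern to a member is a single difference and was not ranked. Some genes of these lists are not reported here.

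As alternatives, values were recomputed from the deposited log2 table, after normexp (offset 50), with quantile normalization and with median centring. Another alternative was a loess (span 0.3) of the difference between the arrays on their mean level. Values were also recomputed with flagged spots kept, with dim probes kept (added after the data were seen) and with each gene at the mean over its probes. The scaling and the 2-fold call were tested on simulated data. R 4.3.3 with limma 3.58.1 ran normexp and quantile normalization, and Python 3.11.15 with statsmodels 0.14.6, pandas 2.3.3, numpy 2.4.6 and matplotlib 3.10.9 did the rest.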

Additional observations from a re-analysis of the deposited data

How the results depend on the processing

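No paired analysis was possible because each genotype has 1 array, and for the same reason no replicate could be left out. The median over the 14 member probes measured on both arrays was −0.22 and moved by more than 0.14, the SD of a difference between single spots over all intensities, only with normexp, to −0.0026, where the median of all probes was 0.08. The count of member probes past 2-fold, 2, was 1 after the loess, 0 with normexp and 4 without the filter on dim probes. The filter on probes measured on both arrays is the one used throughout. The 8 lower and 6 higher probes became 7 and 7 with normexp, and 9 and 7 without the filter on dim probes. Of 84 values of single probes under the alternatives, 78 moved by no more than 0.14, 6 moved further, all with normexp, and 1 changed sign (*Map2k7*, to 0.09). Normexp with an offset adds a constant to every signal and so shrinks differences of dim probes by construction. Quantile normalization, centring, the deposited values and the unfiltered spots moved none of the 14 probes by more than 0.14. Signal over background limits the dim probes of *Mapk8*, *Map2k3*, *Map2k6* and *Map2k7*.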
